A study of Mus musculus with 21 samples.

Results

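The genes examined here are 10 regulators of the caudal end of the embryo, *Cdx1*, *Cdx2*, *Cdx4*, *Evx1*, *Nkx1-2*, *Gbx2*, *Sp5*, *Sp8*, *Sall4* and *Lin28a*, taken by symbol from the 23983 genes of the deposited expression table. All 10 were found there. Of these, 9 encode transcription factors, whereas *Lin28a* encodes an RNA-binding protein that blocks maturation of let-7 microRNAs. The study profiled progenitors of the notochord, the midline rod that patterns the neural tube and somites, and 11 of its 21 samples were used here, 9 RNA-seq and 2 ChIP-seq libraries. Every condition had 1 library, so no difference below has a replicate check, no test was made and no SD or p-value is given.

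The embryonic cells came from pooled mouse embryos made from F1G4 embryonic stem cells carrying the BAC reporters T::H2B-Venus, Noto::H2B-mCherry and Foxa2::H2B-mTurquoise, with no other genetic change or treatment named. Notochord progenitors (NotoPs) were sorted from caudal ends as positive for all 3 reporters, and paraxial mesoderm progenitors (MPs) from caudal ends as positive for the T reporter alone. Trunk notochord cells were sorted from the trunk as positive for all 3 reporters. Each was taken at E8.5 (Theiler stage 12) and at E9.5 (given as Theiler stage 16). In the paper, MPs were gated as high for the T reporter, and E9.5 NotoPs and both trunk pools as high for the Foxa2 reporter. E8.5 NotoPs were gated as positive for the Foxa2 reporter, so their ratios to trunk notochord and to E9.5 NotoPs compare unlike gates. The trunk pools spanned a wider range of somite numbers than the NotoP and MP pools, reaching younger embryos at E8.5 and older ones at E9.5, so ratios over trunk notochord compare pools of unlike somite range. The cultured cells came from another stem cell line, with a doxycycline-inducible *Foxa2* transgene (TRE::Foxa2-IRES-EGFP) switched on by a transactivator expressed from a T BAC (T::H2B-mCherry-T2A-irTA), and a Noto::H2B-mTurquoise BAC. All 3 cultures received 10 ng/ml bFGF, and the Wnt agonist CHIR99021 from day 2. NMPdiff cells, a culture model of neuromesodermal progenitors, were taken on day 3 and MPdiff cells on day 4, both sorted as positive for the T and negative for the Noto reporter. NotoPdiff cells also received 1 ng/ml doxycycline from day 2, and were sorted on day 4 as positive for both reporters. T and Foxa2 ChIP-seq was done on unsorted NotoPdiff-enriched cultures.

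The vertebrate trunk and tail are laid down by progenitors at the caudal end, which are kept by Wnt and Fgf signals while their descendants leave rostrally. The Cdx factors act downstream of these signals and upstream of posterior Hox genes, Sp5 and Sp8 are targets and mediators of Wnt signalling, and *Evx1*, *Nkx1-2* and *Gbx2* encode homeobox factors of the primitive streak and caudal epiblast. Sall4 and Lin28a are also known from pluripotent cells. T (brachyury) and Foxa2 are the transcription factors that together mark the notochord.

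The values are FPKM (fragments scaled by transcript length and by the number of mapped fragments), so that genes can be compared. FPKM values keep no read counts, so the number of reads behind a single value is unknown. *Noto*, which defines the notochord, was between 20.8 and 164 FPKM in the NotoP and trunk notochord libraries and listed at 0 in both MP libraries. The paraxial mesoderm marker *Tbx6* did not separate the progenitors, with 44.0 and 27.8 FPKM in NotoPs and 39.3 and 67.2 in MPs, and was listed at 0 in both trunk libraries. Other such markers did, with *Pcdh8* at 1.27 and 0.162 FPKM in NotoPs and 20.3 and 11.8 in MPs. *Foxc2* was 2.77 and 2.13 FPKM in NotoPs and 28.6 and 23.7 in MPs. *Msgn1* and *Dll1* were also higher in MPs at both stages, whereas the order of *Meox1*, *Tcf15* and *Hes7* changed between stages. The E8.5 MP library was made from the fewest cells, and it and both trunk libraries had fewer cells and fewer mapped reads than the other 3 embryonic libraries. Among the 5735 genes that reached 5 FPKM in each of the other 5 embryonic libraries, 87 (1.52%) were listed at 0 in it. The same count was 46 of 5551 (0.829%) in E9.5 trunk notochord, 11 of 5424 (0.203%) in E8.5 trunk notochord and at most 3 in the other 3 embryonic libraries. A value of 0 is therefore reported only as listed at 0, and no fold is given against it. All 12 housekeeping genes examined were above 0 in all 9 libraries.

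**Figure D1:**
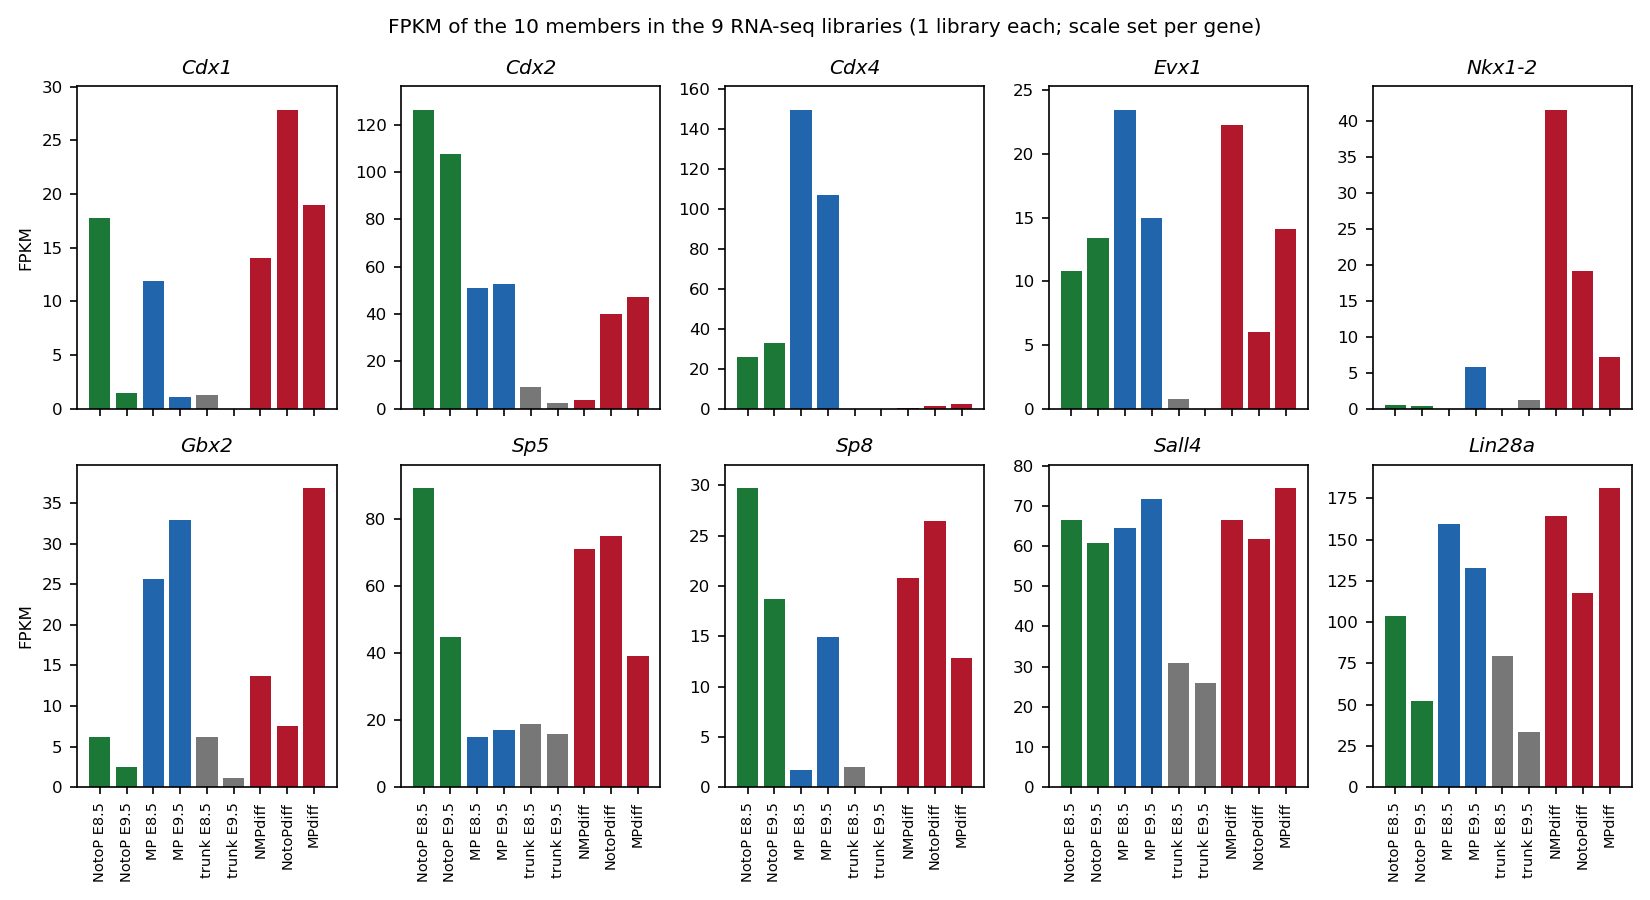
FPKM (vertical axes, scaled per gene) of each of the 10 genes in the 9 RNA-seq libraries (horizontal axes; green NotoP, blue MP, grey trunk notochord, red cultured cells), 1 bar for each library. Both trunk bars are below all 4 caudal bars for *Cdx2*, *Cdx4*, *Evx1* and *Sall4*, and *Cdx4* reaches at most 2.26 FPKM in culture.

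By their median, the caudal regulators were higher in both caudal progenitors than in trunk notochord. Single members departed from this, since *Nkx1-2*, *Gbx2*, *Sp5* and *Sp8* were level with or below trunk notochord in some comparisons. The 10 genes had a median of 27.8 and 25.7 FPKM in NotoPs of the earlier and later stage, 24.5 and 25.0 in MPs, and 4.09 and 1.18 in trunk notochord. Of the 10 genes, 8 reached 10 FPKM in E8.5 NotoPs and in both MP libraries, 7 in E9.5 NotoPs and 3 in each trunk library. Those 3 were *Sp5*, *Sall4* and *Lin28a*. Bulk libraries cannot tell fewer cells with a transcript from less transcript per cell.

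The comparison of caudal with trunk cells asks how the regulators differ between progenitors and the notochord that has left the caudal end. A gene was counted as different when log2 of the ratio of FPKM + 1 was at least 1.58, that is 3-fold. In NotoPs, 4 of the 10 genes were past this bound over trunk notochord at both stages (*Cdx2*, *Cdx4*, *Evx1* and *Sp8*), against 1.77% of the 13458 genes tested. At E8.5 alone there were 6, with *Cdx1* and *Sp5* added, against 8.00% of genes, and at E9.5 alone the 4, against 10.0%. MPs were past the bound at both stages for 4 genes (*Cdx2*, *Cdx4*, *Evx1* and *Gbx2*), against 1.70% of genes. At E8.5 alone there were 5, against 9.05%, and at E9.5 alone 7, against 8.90%. None of the 10 was lower by 3-fold than trunk notochord in NotoPs at either stage, where 14.3% of genes were, and none in MPs, where 24.9% were. The median log2 ratio of NotoP over trunk notochord was 2.74 for the 9 members tested at E8.5 and 1.37 for the 10 at E9.5, beside -0.05 and -0.01 for all genes. For MPs over trunk notochord it was 1.89 for 9 members and 2.98 for 10, beside -0.24 and -0.05 for all genes.

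**Figure D2:**
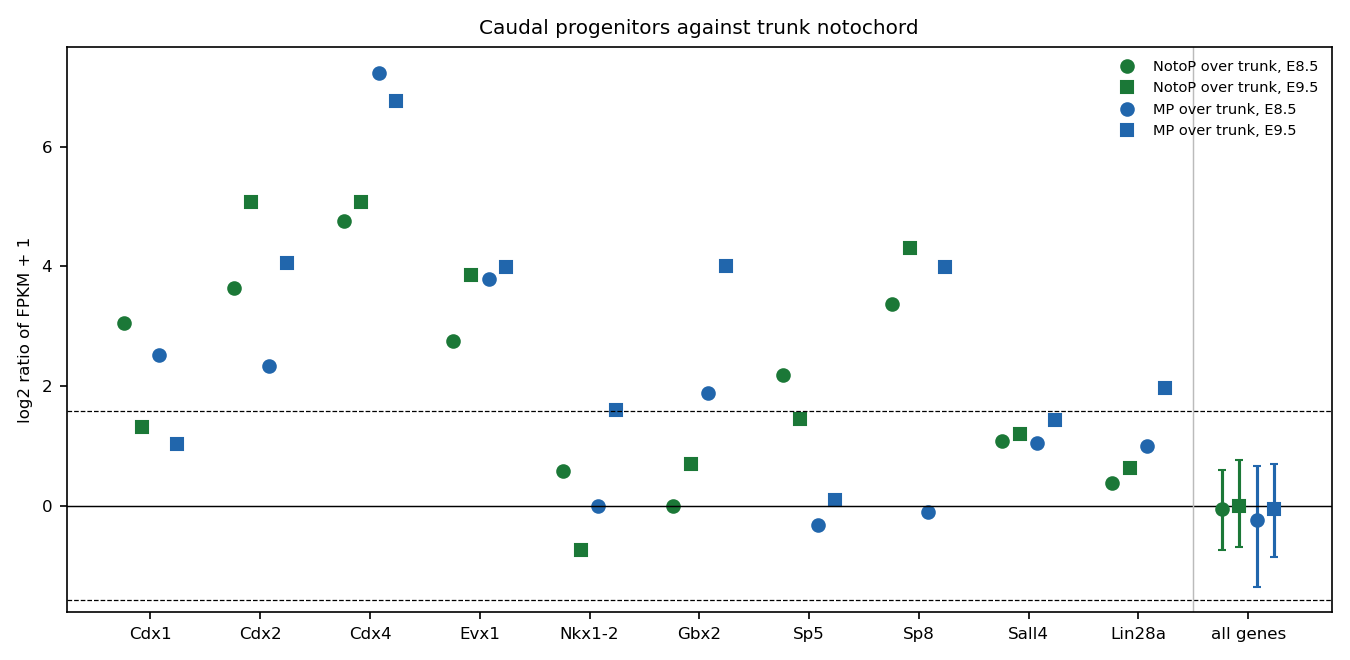
Log2 ratio of FPKM + 1 over trunk notochord of the same stage (vertical axis) for each gene, in NotoPs (green) and MPs (blue) at E8.5 (circles) and E9.5 (squares); dashed lines mark 3-fold, and the points at the right give the median and quartiles of all genes tested. *Cdx2*, *Cdx4* and *Evx1* lie above the 3-fold line in all 4 comparisons, and no gene lies below the lower line.

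The 3 caudal-type homeobox genes had different balances in the 2 progenitors. *Cdx2* was 126 and 107 FPKM in NotoPs of the earlier and later stage, 50.8 and 52.7 in MPs, and 9.23 and 2.22 in trunk notochord. Its NotoP levels were thus the highest, its MP levels intermediate and its trunk levels the lowest at both stages, with FPKM ratios of NotoP over trunk of 13.7 and 48.5. *Cdx4* showed the other order, with 150 and 107 FPKM in MPs, 26.0 and 32.7 in NotoPs, and 0 listed in both trunk libraries. The FPKM ratio of MP over NotoP for *Cdx4* was 5.75 at E8.5 and 3.27 at E9.5. *Cdx1* depended on stage, with 17.8 FPKM in NotoPs at the earlier stage and 1.47 at the later, 11.9 and 1.05 in MPs, and 1.26 in E8.5 trunk notochord with 0 listed at E9.5. In NotoPs, *Cdx2* made up 74.2% and 75.9% of the summed *Cdx* FPKM at the 2 stages, and in MPs *Cdx4* made up 70.5% and 66.6%. The sum itself differed less, from 142 to 212 FPKM over the 4 caudal libraries, and was 10.5 and 2.22 FPKM in trunk notochord.

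The other homeobox genes separated the cell types in their own ways. *Evx1* was 10.8 and 13.4 FPKM in NotoPs, 23.5 and 14.9 in MPs, and 0.764 in E8.5 trunk notochord with 0 listed at E9.5. *Gbx2*, which also acts in hindbrain patterning, was 25.6 and 32.9 FPKM in MPs but 6.21 and 2.42 in NotoPs, and 6.21 and 1.12 in trunk notochord. NotoPs and trunk notochord therefore had the same *Gbx2* level at E8.5, with a log2 ratio of 0.00, and MPs lay above both at each stage. *Nkx1-2*, a marker of the caudal epiblast next to the node, was at most 0.496 FPKM in NotoPs, listed at 0 in E8.5 MPs and E8.5 trunk notochord, and 5.77 FPKM in E9.5 MPs and 1.25 in E9.5 trunk notochord. Both NotoP libraries thus held *Nkx1-2* below 1 FPKM, and its embryonic level was highest in E9.5 MPs. Its GENCODE M21 annotation overlaps *Fgfr2* on the same strand. The FPKM values rest on the RefSeq annotation, and whether reads of both genes were shared there was not examined.

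The Wnt-responsive zinc finger genes were highest in NotoPs. *Sp5* was 89.0 and 44.8 FPKM in NotoPs, 14.9 and 17.0 in MPs, and 18.9 and 15.9 in trunk notochord. MPs and trunk notochord thus had similar *Sp5* levels at both stages, with log2 ratios of -0.33 and 0.09. *Sp8* was 29.7 and 18.7 FPKM in NotoPs, and 1.96 in E8.5 trunk notochord with 0 listed at E9.5. In MPs, *Sp8* was 1.74 FPKM at E8.5, near the trunk value, and 14.9 at E9.5, near that of NotoPs.

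*Sall4* and *Lin28a* were expressed in every library. *Sall4* was not past the 3-fold bound in any comparison made here. *Lin28a* was past it only in E9.5 MPs over E9.5 trunk notochord, with a log2 ratio of 1.96. *Sall4* was 66.4 and 60.9 FPKM in NotoPs, 64.5 and 71.7 in MPs, and 30.8 and 25.9 in trunk notochord, so that all 4 caudal libraries were above both trunk libraries by FPKM ratios between 2.09 and 2.77 within a stage. *Lin28a* was the highest of the 10 genes in MPs and in trunk notochord. It was 104 and 52.0 FPKM in NotoPs, 160 and 133 in MPs, and 79.6 and 33.5 in trunk notochord, with the order MP, NotoP, trunk at both stages. The E9.5 NotoP value lay below the E8.5 trunk value, so the order held within a stage and not across stages.

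Directly compared, MPs exceeded NotoPs by at least 3-fold at both stages for 2 of the 10 genes, *Cdx4* and *Gbx2*, against 0.449% of 12700 genes. No member was higher in NotoPs than in MPs by 3-fold at both stages, where 2.47% of genes were. *Sp5* and *Sp8* were past the bound at E8.5, with log2 ratios of MP over NotoP of -2.51 and -3.49, and not at E9.5, with -1.35 and -0.31. *Cdx2* was -1.30 and -1.02 on the same scale.

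Markers of other cell types moved along with some of these differences. The 8 paraxial mesoderm markers, which include *Tbx6* and *Msgn1*, summed to 210 and 146 FPKM in NotoPs, 215 and 376 in MPs, and 52.9 and 22.0 in trunk notochord, where *Tbx6*, *Msgn1* and *Hes7* were listed at 0. The 8 neural tube markers summed to 40.5 and 30.8 FPKM in NotoPs, 14.9 and 6.56 in MPs, and 104 and 70.1 in trunk notochord. *Irx3* was the highest of them in trunk notochord, at 64.6 and 53.6 FPKM. *Sox2* was 14.3 and 14.5 FPKM there and *Nkx6-1* 14.7 and 1.32, while *Pax6*, *Olig2* and *Neurog2* were listed at 0 in both trunk libraries. The 7 gut endoderm markers in the table summed to 155 and 105 FPKM in NotoPs, 52.1 and 8.25 in MPs, and 149 and 64.1 in trunk notochord. *Apela* was the highest of them in NotoPs, at 85.1 and 72.0 FPKM, and in trunk notochord, at 85.7 and 29.3. *Hnf4a* was listed at 0 in the NotoP and MP libraries and was 2.02 and 0.545 FPKM in trunk notochord, where *Sox17* was listed at 0. The 8 blood markers summed to at most 2.27 FPKM in any library. The part of other cell types in the caudal values was not tested.

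The wider caudal programme was compared through lists of related genes. Of 17 tested signals and partners of caudal progenitors, 9 were higher by at least 3-fold in NotoPs than in trunk notochord at both stages. Among all genes the share was 1.77%. In MPs, 8 of 18 tested were higher, against 1.70% of genes. *Wnt3a*, *Fgf8*, *Fgf17*, *Notum*, *Tbx6* and *Msgn1* were listed at 0 in both trunk libraries, so they were tested only through their caudal values. Of the 9 in NotoPs, the 4 with the largest smaller difference were *Fgf8*, *Rspo3*, *Tbx6* and *Msgn1*. *Fgf8* encodes a growth factor of the caudal end, and was 52.6 and 54.4 FPKM in NotoPs, 20.5 in E9.5 MPs, and listed at 0 in E8.5 MPs and in both trunk libraries. *Rspo3*, which encodes an enhancer of Wnt signalling, was 146 and 144 FPKM in NotoPs, 66.1 and 155 in MPs, and 3.67 in E8.5 trunk notochord with 0 listed at E9.5. In MPs the 4 were *Tbx6*, *Msgn1*, *Rspo3* and *Wnt3a*. *Wnt3a*, a Wnt ligand needed for the tail, was 11.3 and 18.9 FPKM in MPs, 15.4 and 11.2 in NotoPs, and listed at 0 in trunk notochord. *Notum*, which encodes a secreted Wnt inhibitor, was 16.3 FPKM at E8.5 and 2.55 at E9.5 in NotoPs, and 11.6 and 0.679 in MPs.

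Posterior Hox genes lie downstream of Cdx factors. Over trunk notochord at both stages, 7 of 13 tested were past the bound in MPs, against 1.70% of genes. In NotoPs it was 1 of 11, *Hoxd9*, against 1.77%. At E9.5 alone, 9 of 11 tested were past it in NotoPs and 11 of 13 in MPs, against 10.0% and 8.90% of genes. At E8.5 alone, 2 of 2 tested were past it in NotoPs and 8 of 8 in MPs, against 8.00% and 9.05%. *Hoxa10*, *Hoxa11*, *Hoxc11*, *Hoxd11* and *Hoxd13* were listed at 0 in E9.5 trunk notochord. They were tested there only through their caudal values, so the counts past the bound are partly set by the 1 FPKM filter. The 4 largest in MPs were *Hoxd10*, *Hoxc10*, *Hoxc9* and *Hoxa10*, and *Hoxc10* was 8.14 and 151 FPKM in MPs, 0 and 24.9 in NotoPs, and 0 and 1.24 in trunk notochord. Of 14 paralogues of the members, only *Sall1* was past the bound at both stages, in MPs and not in NotoPs, with 80.0 and 136 FPKM in MPs, 50.0 and 65.1 in NotoPs, and 22.6 and 19.9 in trunk notochord. *Sp1*, *Sp3* and *Sp4*, the broadly expressed relatives of *Sp5* and *Sp8*, were not past it. Of 14 genes of the Lin28 and let-7 axis, *Mycn* alone was past the bound at both stages in NotoPs and in MPs. It was 34.9 and 64.3 FPKM in NotoPs, 55.0 and 50.4 in MPs, and 6.78 and 8.24 in trunk notochord.

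The change from E8.5 to E9.5 was asked within each cell type. In NotoPs, 1 of the 9 members tested was lower at E9.5 by at least 3-fold, *Cdx1*, against 3.96% of genes, and in MPs 1 of 10, again *Cdx1*, against 6.84%. The log2 ratios of E9.5 over E8.5 for *Cdx1* were -2.93 in NotoPs and -2.65 in MPs, so the gene was lower by a like amount in both progenitors, while *Cdx2* had ratios of -0.23 and 0.05 and *Cdx4* of 0.32 and -0.48. In trunk notochord, 2 of 8 tested were lower, *Cdx2* (-1.67) and *Gbx2* (-1.77), against 11.1% of genes. *Sp8* (-1.57) and *Lin28a* (-1.23) were below 0 there and not past the bound, and *Cdx4* and *Evx1* were too low to test. In MPs, 2 of 10 members were higher at E9.5 by 3-fold, *Sp8* with a log2 ratio of 2.54 and *Nkx1-2* with 2.76, against 12.7% of genes in MPs. No other member was higher in any of the 3 cell types, so the 2 of 10 are near the 19.4% of genes higher in at least 1 of them. Both rest on the E8.5 MP library, in which *Nkx1-2* was listed at 0. The median log2 ratio of E9.5 over E8.5 was -0.64 for the 9 members tested in NotoPs, 0.10 for the 10 in MPs and -1.20 for the 8 in trunk notochord, beside -0.01, 0.09 and -0.03 for all genes.

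**Figure D3:**
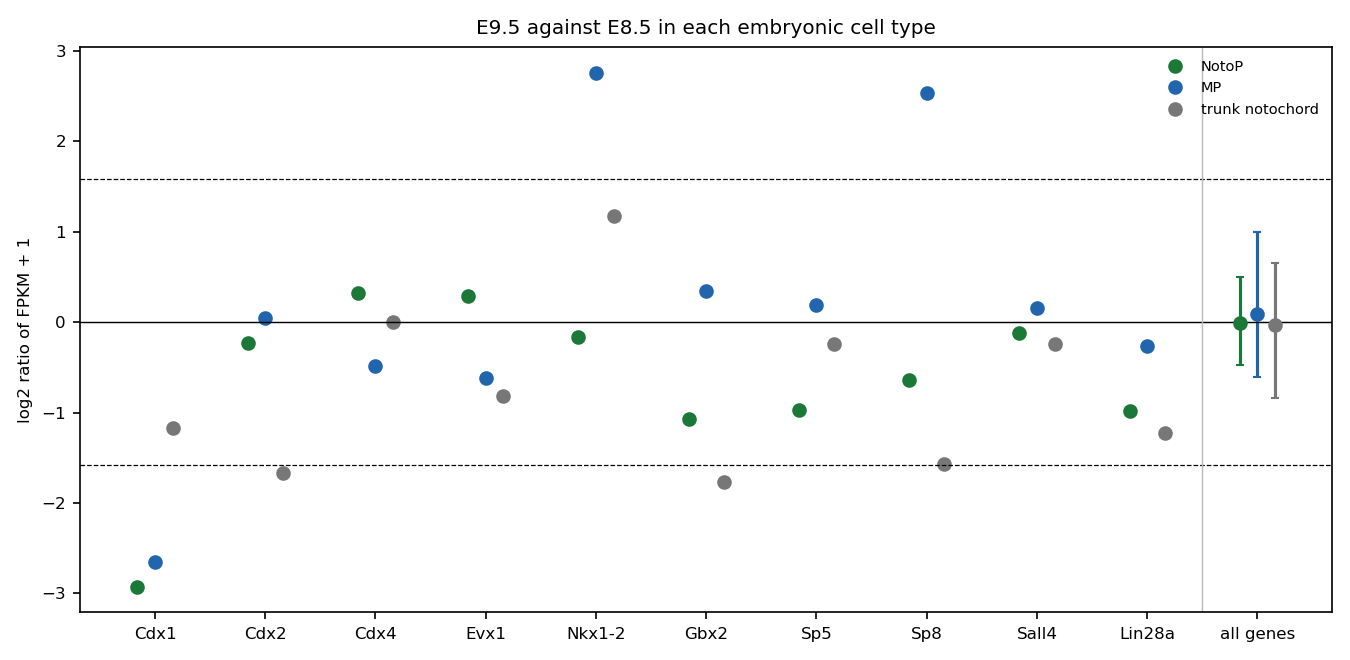
Log2 ratio of FPKM + 1 at E9.5 over E8.5 (vertical axis) for each gene in NotoPs (green), MPs (blue) and trunk notochord (grey); dashed lines mark 3-fold, and the points at the right give the median and quartiles of all genes tested. *Cdx1* lies below the lower line in NotoPs and MPs, and *Nkx1-2* and *Sp8* lie above the upper line in MPs.

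In culture, NotoPdiff and MPdiff of day 4 were each compared with NMPdiff of day 3. NotoPdiff cells had doxycycline from day 2, before NMPdiff cells were taken, so they were a parallel culture and not a later stage of NMPdiff. The paper leaves unresolved whether NMPs and notochord-like cells share a progenitor, so these ratios are differences between cultures and not changes along a lineage. *Cdx2* was 3.49 FPKM in NMPdiff, 39.9 in NotoPdiff and 47.0 in MPdiff. It was the only member past the 3-fold bound as higher than in NMPdiff, against 2.52% of genes in NotoPdiff and 1.78% in MPdiff. *Cdx4* was low in all 3 cultures and not past the bound of FPKM + 1, although its FPKM ratio over NMPdiff was 3.69 in NotoPdiff and 7.19 in MPdiff; with a pseudocount of 0.1 FPKM it was past it in both. *Evx1* was 22.3 FPKM in NMPdiff, 6.02 in NotoPdiff and 14.1 in MPdiff, and was the only member past the bound as lower in NotoPdiff than in NMPdiff, against 1.53% of genes. *Nkx1-2* was 41.5 FPKM in NMPdiff, 19.2 in NotoPdiff and 7.13 in MPdiff, and was the only member past it as lower in MPdiff, against 2.92%. Relative to NMPdiff, *Cdx2* was thus higher in both day 4 cultures, and *Evx1* and *Nkx1-2* were lower in both. NMPdiff held the highest *Nkx1-2* level of all 9 libraries. *Gbx2* was 7.51 FPKM in NotoPdiff and 36.8 in MPdiff, with 13.7 in NMPdiff. It alone was lower by 3-fold in NotoPdiff than in MPdiff, against 0.861% of genes, and no member was higher, where 3.02% of genes were. NMPdiff cells also carried pluripotency transcripts, whose 8 markers summed to 430 FPKM, with *Pou5f1* at 269, against 17.4 in NotoPdiff, 18.4 in MPdiff and at most 3.12 in the embryo. Their part in the NMPdiff values was not tested.

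**Figure D4:**
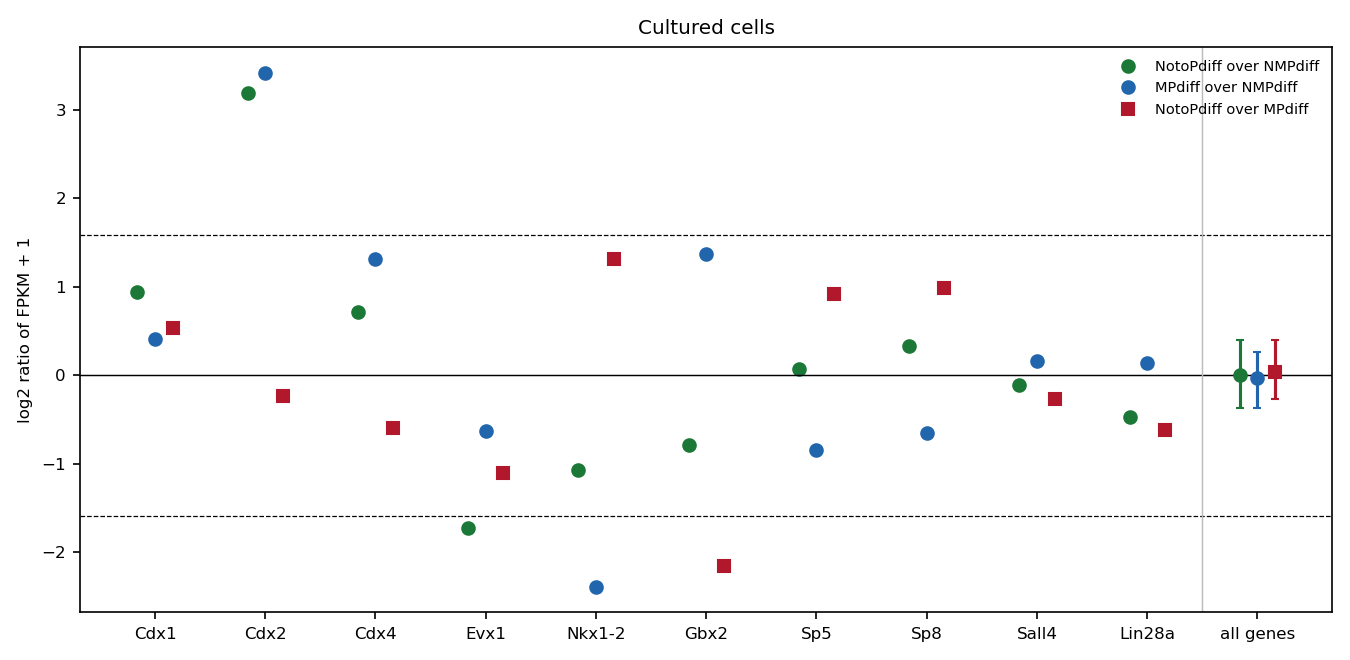
Log2 ratio of FPKM + 1 (vertical axis) for each gene in NotoPdiff over NMPdiff (green), MPdiff over NMPdiff (blue) and NotoPdiff over MPdiff (red squares); dashed lines mark 3-fold, and the points at the right give the median and quartiles of all genes tested. *Cdx2* lies above the upper line for NotoPdiff and for MPdiff over NMPdiff, and *Evx1*, *Nkx1-2* and *Gbx2* lie below the lower line in 1 comparison each.

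The remaining members differed less between the cultures. *Cdx1* was 14.0 FPKM in NMPdiff, 27.8 in NotoPdiff and 19.0 in MPdiff. *Sp5* was 71.1, 74.8 and 39.1 FPKM and *Sp8* 20.8, 26.5 and 12.9 in the same order, so both were lowest in MPdiff. *Sall4* stayed between 61.7 and 74.3 FPKM, and *Lin28a* between 118 and 181. *Cdx4* was 0.315, 1.16 and 2.26 FPKM, and its share of the summed *Cdx* FPKM was at most 3.32% in culture. Of the 14 Lin28 and let-7 axis genes, 3 were higher by 3-fold in MPdiff than in NMPdiff (*Hmga2*, *Igf2bp2* and *Mycn*), against 1.78% of genes. None was lower, where 2.92% of genes were. The let-7 target *Hmga2* was 37.0 FPKM in NMPdiff, 60.5 in NotoPdiff and 325 in MPdiff.

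Set beside the embryo, the cultured values were past the 3-fold bound from those of the matching cell type in all 4 pairs for *Cdx4*. For *Cdx1*, *Cdx2*, *Sp8* and *Nkx1-2* this depended on the pair compared. The share of all genes past the bound was not computed for these pairs, so whether the members stand out is not known. Quartiles of the log2 ratio over all genes were -0.48 and 0.63 for NotoPdiff over E8.5 NotoPs, and -0.42 and 0.55 over E9.5 NotoPs. For MPdiff they were -0.58 and 1.14 over E8.5 MPs, and -0.33 and 0.46 over E9.5 MPs. The embryonic and cultured libraries were sequenced on different instruments and from different stem cell lines, and these cannot be told apart from the difference between embryo and culture. *Cdx4* was 1.16 FPKM in NotoPdiff against 26.0 and 32.7 in NotoPs, and 2.26 in MPdiff against 150 and 107 in MPs. The log2 ratio of culture over embryo for *Cdx4* was between -5.53 and -3.64 over the 4 pairs. *Nkx1-2* was 19.2 FPKM in NotoPdiff against at most 0.496 in NotoPs. In MPdiff it was 7.13, against 5.77 in E9.5 MPs and 0 listed in E8.5 MPs, and was past the bound only over the latter. *Cdx2* in NotoPdiff was lower than in E8.5 NotoPs, with a log2 ratio of -1.64, and had -1.41 against E9.5 NotoPs, within the bound. In MPdiff its log2 ratios over MPs were -0.11 and -0.16. *Sp8* in MPdiff was far from E8.5 MPs (2.34) and near E9.5 MPs (-0.20), and *Cdx1* in MPdiff was near E8.5 MPs (0.64) and far from E9.5 MPs (3.29). *Cdx1* in NotoPdiff, at 27.8 FPKM, lay nearer to E8.5 NotoPs (17.8) than to E9.5 NotoPs (1.47). *Sall4* had log2 ratios of culture over embryo between -0.11 and 0.20. *Gbx2* was higher in the mesodermal than in the notochordal cells in each of the 3 comparisons, with log2 ratios of 1.89 at E8.5, 3.31 at E9.5 and 2.15 in culture.

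The ChIP-seq peaks show where T and Foxa2 were found near these genes in NotoPdiff-enriched cultures, and only their position and height are used here. A peak was given to a gene when its summit lay within 50 kb of the 5' end of the gene on GRCm38 (mm10). T peaks lay within 50 kb of 8 of the 10 genes, all but *Nkx1-2* and *Lin28a*, against 26.2% of 21951 protein-coding genes. Foxa2 peaks lay within 50 kb of 6 (*Cdx2*, *Cdx4*, *Nkx1-2*, *Gbx2*, *Sp5* and *Sp8*), against 51.6%. Overlapping T and Foxa2 peaks were found at 2, *Gbx2* and *Sp5*, against 4.71%. *Lin28a* alone had neither, as had 38.8% of protein-coding genes. Among the 10929 protein-coding genes with at least 1 FPKM in NotoPdiff, which include all 10 members, the shares were 31.0% for T, 58.6% for Foxa2 and 5.70% for overlapping peaks. The T share of the members was thus above both backgrounds, and the Foxa2 share was near them. Widening the window to 100 kb gave 10 members with a Foxa2 peak, against 72.6% of protein-coding genes, and 8 with a T peak, against 43.6%.

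**Figure D5:**
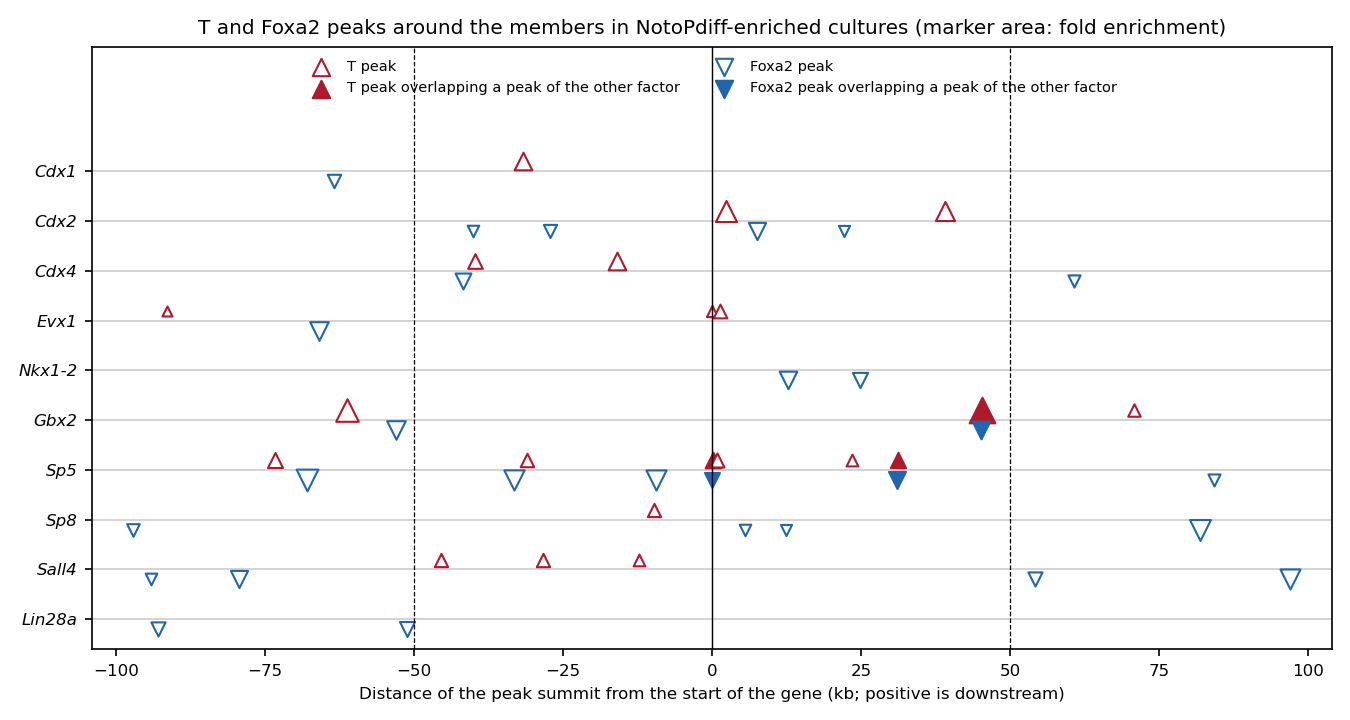
Distance of each T (red, upward triangles) and Foxa2 (blue, downward triangles) peak summit from the 5' end of the gene (horizontal axis, kb, positive downstream), 1 row for each gene; the marker area is proportional to fold enrichment, filled markers overlap a peak of the other factor, and dashed lines mark 50 kb. *Sp5* has the most peaks, filled markers are seen for *Gbx2* and *Sp5*, and *Lin28a* has no T peak in the range.

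Of the 17 T peaks at members, 5 lay within 5 kb of the gene start, and of the 14 Foxa2 peaks 1 did. The fold enrichment at the summit ranged from 4.09 to 21.7 for T, with a median of 6.49 beside 7.45 over all 6875 T peaks, and from 4.07 to 13.5 for Foxa2, with a median of 7.99 beside 7.19 over all 22684 Foxa2 peaks. The medians at the members thus lay near those of their lists.

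The strongest T peak of the set belonged to *Gbx2* (chr1:89927956-89931179, minus strand). It lay 45.2 kb downstream of the start at chr1:89885751-89886207, in an intron of *Agap1*, with a fold enrichment of 21.7 and −log10 q of 103. Of all T peaks, 1.73% were higher. A Foxa2 peak at chr1:89885821-89886190 overlapped it, with a fold enrichment of 10.3 and a summit 20 bp away. *Gbx2* was low in NotoPdiff, with 7.51 FPKM, and highest in MPdiff.

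*Sp5* (chr2:70474923-70477729, plus strand) had 5 T and 4 Foxa2 peaks within 50 kb, the most of the 10 genes. One pair overlapped at the promoter, with a T peak at chr2:70474697-70475172 (fold enrichment 8.06) and a Foxa2 peak at chr2:70474720-70475086 (7.41), whose summits fell 105 and 12 bp downstream of the start in the 5' UTR. The other pair was intergenic, 31.1 kb and 31.0 kb downstream, with a T peak at chr2:70505794-70506376 (7.62) and a Foxa2 peak at chr2:70505497-70507096 (9.5). The highest Foxa2 peak at *Sp5* lay 33.2 kb upstream, at a fold enrichment of 13.5.

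At *Cdx2* (chr5:147300805-147307270, minus strand), the highest T peak, at chr5:147304689-147305289, lay in an intron of the gene itself, 2.36 kb downstream of its start, with a fold enrichment of 14.6 and −log10 q of 76.0. A further T peak was 39.1 kb downstream, with a fold enrichment of 12.0. The highest of its 4 Foxa2 peaks was 7.50 kb downstream, at 9.79, and none overlapped a T peak. *Cdx4* (chrX:103321398-103330592, plus strand) had 2 intergenic T peaks upstream, 1 of them 39.7 kb away with a fold enrichment of 7.08, and a Foxa2 peak 41.8 kb upstream at 8.35. The T peak given to *Cdx1* lay 31.7 kb upstream in an intron of *Pdgfrb*, with a fold enrichment of 10.3.

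*Evx1* (chr6:52313498-52318378, plus strand) had T peaks 40 bp downstream of its start in the UTR and 1.32 kb downstream in an intron, with fold enrichments of 4.09 and 6.24. The first lies among the weakest of the list, since 96.1% of T peaks were higher, and the gene overlaps the antisense gene *Evx1os*. *Sp8* (chr12:118846329-118852576, plus strand) had a T peak 9.65 kb upstream at 5.74, and Foxa2 peaks 5.58 kb and 12.4 kb downstream at 4.39 and 4.07. *Sall4* (chr2:168748332-168767943, minus strand) had 3 intergenic T peaks, the highest 28.3 kb upstream at 5.87. *Nkx1-2* (chr7:132594878-132599637, minus strand) had 2 Foxa2 peaks downstream, the higher at 10.2 in an intron of *Fgfr2* 12.8 kb away. *Lin28a* (chr4:134003330-134018841, minus strand) had its nearest Foxa2 peak 51.2 kb upstream. A nearby peak does not show which gene a region acts on.

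The sequences under 3 peaks that carry these results are shown as 300 bases around the summit, from the plus strand of GRCm38. Each was searched on both strands for the T half-site AGGTGTGA, its shorter form GGTGTGA, which every full match also contains, and the forkhead sites TGTTTAC and TATTTAC. Matches are in capitals, written as they read on the plus strand. The *Gbx2* region, the strongest shared peak, is chr1:89885811-89886110, the *Sp5* region, the distal shared peak, is chr2:70505902-70506201, and the *Cdx2* region, the intronic T peak, is chr5:147304765-147305064.
Gbx2 T and Foxa2 peak: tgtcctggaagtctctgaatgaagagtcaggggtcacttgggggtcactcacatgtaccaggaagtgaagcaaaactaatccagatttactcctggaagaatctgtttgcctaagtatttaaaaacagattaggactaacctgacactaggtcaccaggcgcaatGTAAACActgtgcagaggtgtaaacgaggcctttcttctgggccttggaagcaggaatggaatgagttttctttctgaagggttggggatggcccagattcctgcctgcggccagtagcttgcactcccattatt
Sp5 distal T and Foxa2 peak: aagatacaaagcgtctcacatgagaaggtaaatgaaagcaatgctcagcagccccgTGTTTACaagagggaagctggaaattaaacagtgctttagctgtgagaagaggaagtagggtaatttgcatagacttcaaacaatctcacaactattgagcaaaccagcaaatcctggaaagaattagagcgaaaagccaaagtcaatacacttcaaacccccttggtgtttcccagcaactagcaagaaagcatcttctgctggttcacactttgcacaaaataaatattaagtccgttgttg
Cdx2 intronic T peak: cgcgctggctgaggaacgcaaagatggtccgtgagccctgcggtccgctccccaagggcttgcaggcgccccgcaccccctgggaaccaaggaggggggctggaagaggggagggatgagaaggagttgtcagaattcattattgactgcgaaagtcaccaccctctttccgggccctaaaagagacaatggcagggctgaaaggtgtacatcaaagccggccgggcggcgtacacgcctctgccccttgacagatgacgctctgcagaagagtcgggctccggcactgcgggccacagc

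The *Gbx2* region held 1 forkhead match, centred 19 bp from the T summit, and no T half-site. The *Sp5* region held 1 forkhead match, 90 bp from the T summit, and no T half-site. The *Cdx2* region held none of these motifs. For comparison, in windows of the same length the full half-site was found in 4.82% of T peaks and 1.40% of Foxa2 peaks, the shorter form in 13.6% and 4.02%, and a forkhead site in 24.3% and 30.5%. Among T peaks that overlap a Foxa2 peak, 39.4% held a forkhead site. Over the members, 2 of 17 T peaks held the full half-site, 2 the shorter form and 3 a forkhead site, and of 14 Foxa2 peaks 1, 2 and 4 did. A match is a run of letters and not a measured site.

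The 250 bases before the *Sp5* start, chr2:70474673-70474922 on the plus strand, are shown from RefSeq (GRCm38.p6) because both promoter peaks cover most of them.
Sp5 promoter: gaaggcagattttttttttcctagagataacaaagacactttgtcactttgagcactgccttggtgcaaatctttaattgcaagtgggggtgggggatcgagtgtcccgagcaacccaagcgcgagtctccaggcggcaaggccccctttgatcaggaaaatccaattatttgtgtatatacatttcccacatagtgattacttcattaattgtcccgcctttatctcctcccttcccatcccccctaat

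None of the motifs was found in these bases. Promoter sequences of 300 bases were at hand for 8 of the 10 genes. None held a T half-site in either form, where 1.28% and 3.98% of 32851 RefSeq promoters did, and 1, that of *Cdx2*, held a forkhead site, where 6.54% did.

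Tandem repeats lay under part of the Foxa2 peaks. In 5 of the 14 Foxa2 windows at members, at least 30% of the bases were in GT or CA runs of 3 or more repeats, against 14.9% of all Foxa2 windows, and in 0 of the 17 T windows, against 0.0291% of all T windows. These 5 windows included the highest Foxa2 peaks of *Sp5* and of *Nkx1-2*, and none of the overlapping peaks. The part of repeats in the Foxa2 signal was not tested. Without these peaks, *Nkx1-2* keeps its Foxa2 peak 24.9 kb downstream, and *Cdx2* and *Sp5* keep 2 each.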

How the data were processed

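The 9 RNA-seq columns and the 2 peak lists of the sorted or enriched cells above were used, and the other 10 samples were not used here. For RNA-seq, the authors aligned reads to mm10 with TopHat2 2.1.1 and Bowtie 1.2.2 by strand, removed copies by molecular identifiers, and deposited FPKM values from Cufflinks 2.2.1. All 9 columns were used and 0 left out. The ChIP-seq reads were aligned by the authors with Bowtie 1.3.1 and peaks called with MACS3 3.0.0b1 at a q-value of 0.1 on 1 library for each factor; the control is not given in the sources used here. The deposited peak lists give a fold enrichment, −log10 of p and q, and a score, which was not used. A gene was tested when it reached 1 FPKM in a library of the comparison, with a pseudocount of 1 FPKM. FPKM + 1 understates the change of low genes. Named genes are the 10 members, for each the 3 genes with the most similar pattern among those reaching 10 FPKM, up to 4 of each related list past 3-fold, the highest peak of each factor and every overlapping peak; others named (*Notum*, *Hmga2*, *Sp1*, *Sp3*, *Sp4* and marker genes) were chosen after their values were seen. Members and lists were chosen with earlier results of these data known. The labels describe tetraploid complementation for the embryos and the study's text diploid aggregation. The sequence and details of 1 further peak are not reported here. Gene positions come from GENCODE M21. Values were computed in Python 3.11.15 (pandas 2.3.3, numpy 2.4.6, pysam 0.24.0) and drawn with matplotlib 3.10.9. In all, 103 alternatives were planned and 23 added later.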

Additional observations from a re-analysis of the deposited data

Results flagged for a closer look

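*Sp8* had stage differences of opposite sign in MPs and in the other embryonic cells. Its log2 ratio of E9.5 over E8.5 was -0.64 in NotoPs, 2.54 in MPs and -1.57 in trunk notochord. NotoPs minus MPs gave -3.18, and MPs minus trunk notochord 4.11. The E8.5 MP library, with 1.74 FPKM of *Sp8*, was made from the fewest cells. The difference was not tested.

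*Nkx1-2* had opposite differences between notochordal and mesodermal cells in the embryo and in culture. NotoP over MP gave a log2 ratio of -2.34 at E9.5, and in culture that of NotoPdiff over MPdiff was 1.31, a difference of -3.65. At E8.5 it was listed at 0 in MPs and was 0.496 FPKM in NotoPs. The difference was not tested.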

How the results depend on the processing

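Over 17 counts of members, 126 alternatives were computed, 23 of them chosen after seeing the data, and 102 gave a count within 1.5 times the main one. Shares of all genes were not computed for the changed folds, pseudocounts and peak settings, apart from the 100 kb window. Those counts thus show only how the calls move with the settings. With a fold of at least 2, the count higher in NotoPs than in trunk notochord at both stages was 7. That lower at E9.5 was 2 in NotoPs and 5 in trunk notochord, and those of NotoPdiff were 2 lower than NMPdiff, 2 lower than MPdiff and 1 higher than MPdiff (*Nkx1-2*), with 3 in MPdiff higher than NMPdiff. With a fold of at least 4 it was 0 for MP over NotoP, for trunk notochord lower at E9.5 and for NotoPdiff lower than NMPdiff. A pseudocount of 5 FPKM gave 0 for MP over NotoP, for lower at E9.5 in MPs and in trunk notochord, for higher at E9.5, and for NotoPdiff lower than NMPdiff. A pseudocount of 0.1 FPKM gave 4 lower at E9.5 in trunk notochord and 1 (*Nkx1-2*) lower in NotoPs than in trunk notochord, and 2 (*Cdx2* and *Cdx4*) higher than in NMPdiff in each of NotoPdiff and MPdiff. The E9.5 libraries alone gave 7 members higher in MPs than in trunk notochord. Foxa2 peaks lay within 100 kb of 10 members. Overlapping peaks were found at 1 member within 25 kb, at 1 when only peaks over 5 kb from any start were kept, and at 4 in intervals between neighbouring genes. Those intervals differed in length, from 52.5 kb at *Cdx2* to 731 kb at *Sp8*. Calls near the bound, such as *Gbx2* and *Cdx2* in trunk notochord between stages, thus depend on the settings, while rescaling the libraries gave the same members for the 14 expression counts and moved the median of all genes by at most 0.04 on the log2 scale. No paired analysis was possible because each condition had 1 library and no replicate numbers link them; a fit with the 2 stages as blocks was not made. Depth limits the low values most, in the libraries from few cells.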

Other observations

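Among the 8751 genes reaching 10 FPKM in a library, those whose log2(FPKM + 1) followed each member most closely over the 9 libraries were mostly not caudal regulators. The values share libraries, scaling and 2 stem cell lines, and the correlations are given as a description. *Cdx4* was followed most closely by *Mira* (Pearson r of 0.98), *Hoxc8* (0.98) and *Hoxaas3* (0.97). *Cdx1* was followed by *Rpl39*, *Pabpc1* and *Rpl23* (0.93 to 0.95), *Cdx2* by *Pus3*, *Cecr2* and *Notch3* (0.94 to 0.95), and *Gbx2* by *Eif5a2*, *Apex2* and *Vprbp* (0.94 to 0.95). For *Evx1* they were *Agpat5*, *5730457N03Rik* and *Ubl5* (0.96 to 0.97), for *Nkx1-2* *Fem1b*, *Snora43* and *Pmaip1* (0.95 to 0.96), and for *Sall4* *Ubl5*, *Dll1* and *Nup155* (0.97 to 0.98). *Sp5* was followed by *Itpr1*, *Vat1* and *2310061I04Rik* (0.93 to 0.97), *Sp8* by *Ccdc43*, *Dnajb5* and *Mrps21* (0.96 to 0.97), and *Lin28a* by *Pcgf6* (0.995), *Fbxw7* and *Ap2a1* (both 0.97). Between members, the closest pairs were *Evx1* with *Sall4* (0.95), *Gbx2* with *Lin28a* (0.92) and *Sp5* with *Sp8* (0.82), and *Cdx4* with *Nkx1-2* was the lowest at -0.37.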
